A study of Mus musculus with 6 samples.

Results

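The replication-dependent histone genes were followed through ATACseq of GL261 cells, a mouse glioma line that stably carried the pEGFP-N1 plasmid. The members were all protein-coding genes of GENCODE M21 whose symbol begins with Hist1h, Hist2h, Hist3h or Hist4h, which gave 67 of 21938 protein-coding genes, and the regions studied were the ATACseq peaks within 2000 bp of their start sites. Of 41308 consensus peaks in the whole series, 43 lay that near to a member, and 41 of these were found in all 6 libraries and could be ranked, beside 12959 ranked promoter peaks of any gene. Cells had been kept at 21% O2, or for 16 h at 1% O2 (moderate hypoxia) or <0.1% O2 (severe hypoxia), and were fixed with formaldehyde before the transposase was applied. There were 2 libraries per condition, and nothing in the labels says whether these came from separate cultures, so the spread between them may be technical. Peaks were present at all 8 glial and glioma marker promoters in every library, whereas 4 of 5 microglial and immune, 2 of 3 endothelial and 2 of 4 neuronal marker promoters had no peak in any library.

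Core histones H2A, H2B, H3 and H4 form the octamer that DNA is wrapped around, and linker histone H1 binds where the DNA enters and leaves it. The replication-dependent genes supply these proteins in S phase, when newly copied DNA has to be packaged. They sit in dense clusters, have no introns and give transcripts that end in a stem-loop in place of a poly(A) tail. Their transcription is gathered in histone locus bodies, where NPAT acts downstream of cyclin E and CDK2, and the stem-loop binding protein SLBP takes the transcript through its processing. Many H2A and H2B genes stand head to head and share the sequence between them.

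Of the 67 genes, 54 belonged to the Hist1 cluster on chromosome 13, which fell into 2 stretches in mm10, 23 genes in the first (chr13:21715763-22043676) and 31 in the second (chr13:23531050-23934851). Hist2 held 10 genes (chr3:96219865-96270132), Hist3 2 genes (chr11:58948920-58956830) and Hist4 1 gene (chr6:136801553-136804415). By type there were 6 H1, 18 H2A, 18 H2B, 12 H3 and 13 H4 genes.

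Promoter motifs were spread unevenly over the histone types. Windows of 300 bases, from 250 before to 50 after the RefSeq start (GRCm38.p6), were available for 62 of the 67 members. Hist1h3f, Hist1h2bc, Hist1h3a, Hist2h2be and Hist2h4 had no entry. The CCAAT box, searched on both strands, lay in 53 of 62 member windows (85.5%) against 38.2% of 21263 windows of protein-coding genes. It was found in every H1, H2A, H2B and H3 window and in 3 of 12 H4 windows. TATAAA, on either strand, lay in 35 member windows (56.5%) against 12.6% of all. The octamer ATTTGCAT, known as the site of OCT1, lay in 13 member windows (21.0%) against 1.66% of all, in 7 of 18 H2A and 6 of 16 H2B windows and in none of the H1, H3 or H4 windows. Read 5′ to 3′, it stood on the strand opposite to the gene in the 7 H2A windows and on the strand of the gene in the 6 H2B windows. Windows of head-to-head genes can overlap, and the same site is then counted for both genes, for each of the 3 motifs. For the octamer this held at Hist1h2ah and Hist1h2bk, Hist1h2ae and Hist1h2bg, and Hist1h2aa and Hist1h2ba. In such pairs the opposite strands follow from the layout of the genes. A match is a description of letters and not a site of binding.

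The windows below belong to genes described later, with Hist1h4k, Hist1h3i and Hist1h3c among the largest falls in accessibility under hypoxia, Hist1h1a, Hist1h2ab and Hist1h2bb as examples of the H1, H2A and H2B layout, and Hist2h2aa1 and Hist3h2ba among the smallest changes. Each is printed 5′ to 3′ on the strand of the gene, in lower case, with matches to any of the 3 motifs on either strand in capitals, and the first 250 bases precede the start site.
Hist1h4k (H4, chr13:21750504-21750803, minus strand): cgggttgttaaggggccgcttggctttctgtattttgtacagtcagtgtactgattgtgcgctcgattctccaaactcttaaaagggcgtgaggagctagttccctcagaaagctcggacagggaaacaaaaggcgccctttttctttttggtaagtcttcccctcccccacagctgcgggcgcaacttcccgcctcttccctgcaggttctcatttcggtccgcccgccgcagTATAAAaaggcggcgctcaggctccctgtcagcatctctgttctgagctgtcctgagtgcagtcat
Hist1h3i (H3, chr13:21783348-21783647, minus strand): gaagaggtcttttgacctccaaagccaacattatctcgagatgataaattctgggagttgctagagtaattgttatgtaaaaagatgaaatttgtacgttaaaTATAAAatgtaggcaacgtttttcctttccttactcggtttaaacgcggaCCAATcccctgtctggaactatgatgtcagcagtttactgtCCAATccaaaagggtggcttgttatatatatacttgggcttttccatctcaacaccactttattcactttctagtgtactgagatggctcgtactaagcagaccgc
Hist1h3c (H3, chr13:23745472-23745771, minus strand): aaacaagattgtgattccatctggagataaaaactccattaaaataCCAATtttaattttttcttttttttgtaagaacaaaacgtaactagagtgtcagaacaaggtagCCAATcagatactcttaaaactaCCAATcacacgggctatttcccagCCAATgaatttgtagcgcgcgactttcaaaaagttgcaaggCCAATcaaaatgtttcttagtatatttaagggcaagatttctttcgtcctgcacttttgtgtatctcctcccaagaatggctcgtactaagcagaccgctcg
Hist1h1a (H1, chr13:23763418-23763717, plus strand): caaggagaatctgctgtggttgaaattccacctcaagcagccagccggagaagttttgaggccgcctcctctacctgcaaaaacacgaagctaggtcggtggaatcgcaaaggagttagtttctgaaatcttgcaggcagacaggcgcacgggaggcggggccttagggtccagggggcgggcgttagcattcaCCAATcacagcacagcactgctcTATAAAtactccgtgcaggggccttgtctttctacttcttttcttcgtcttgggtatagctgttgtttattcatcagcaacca
Hist1h2ab (H2A, chr13:23750838-23751137, plus strand): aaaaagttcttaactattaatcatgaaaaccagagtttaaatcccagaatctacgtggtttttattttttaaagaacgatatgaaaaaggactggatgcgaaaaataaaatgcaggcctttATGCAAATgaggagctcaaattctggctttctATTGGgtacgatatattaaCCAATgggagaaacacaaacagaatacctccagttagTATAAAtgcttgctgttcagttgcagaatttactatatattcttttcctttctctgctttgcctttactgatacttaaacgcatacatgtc
Hist1h2bb (H2B, chr13:23746484-23746783, plus strand): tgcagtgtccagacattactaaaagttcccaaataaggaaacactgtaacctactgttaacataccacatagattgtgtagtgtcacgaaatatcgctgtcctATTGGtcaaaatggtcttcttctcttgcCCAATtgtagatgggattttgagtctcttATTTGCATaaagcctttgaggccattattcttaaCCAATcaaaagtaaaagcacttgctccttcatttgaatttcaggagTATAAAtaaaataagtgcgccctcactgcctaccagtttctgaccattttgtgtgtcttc
Hist2h2aa1 (H2A, chr3:96245247-96245546, plus strand): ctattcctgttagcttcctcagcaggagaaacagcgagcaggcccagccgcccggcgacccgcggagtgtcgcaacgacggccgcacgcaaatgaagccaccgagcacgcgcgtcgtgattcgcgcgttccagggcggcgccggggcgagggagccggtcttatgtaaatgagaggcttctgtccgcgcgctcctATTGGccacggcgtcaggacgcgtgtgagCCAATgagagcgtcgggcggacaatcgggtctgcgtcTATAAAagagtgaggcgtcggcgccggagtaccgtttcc
Hist3h2ba (H2B, chr11:58948661-58948960, plus strand): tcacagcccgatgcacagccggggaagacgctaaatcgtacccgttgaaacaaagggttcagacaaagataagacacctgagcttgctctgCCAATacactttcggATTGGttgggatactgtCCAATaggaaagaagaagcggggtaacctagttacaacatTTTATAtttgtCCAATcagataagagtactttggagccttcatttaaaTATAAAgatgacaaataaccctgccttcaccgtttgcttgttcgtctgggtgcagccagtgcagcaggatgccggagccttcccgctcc

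Accessibility was read from the peak lists. MACS2 gave each peak a fold over local background and a p-value, and the 2 values together fix the whole-number count of fragments over the summit (the summit pileup) and the local background, recovered in each library for 100% of peaks within a tolerance of 0.01. Mean fragment coverage of the genome, read from the lowest background, was 2.16 to 2.36 at 21% O2, 2.93 to 2.99 at 1% O2 and 3.18 to 3.35 at <0.1% O2, so the hypoxic libraries were deeper. Each value was therefore turned into a percentile rank among the 28432 consensus peaks found in all 6 libraries, where 100 is the highest. A rank therefore says where a peak stands in its own library and carries no absolute scale. The words lower and higher are used for peaks whose 2 libraries of one condition were both outside the range of the other condition, with a mean shift of 10 points or more. No p-value per peak is given, since an exact permutation test of 2 against 2 libraries cannot go below 0.33.

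Most histone genes had a peak, under hypoxia as under normoxia. A peak lay within 2000 bp of 60 of 67 members (89.6%) in both libraries at 21% O2, 57 (85.1%) at 1% O2 and 59 (88.1%) at <0.1% O2, where the shares over all protein-coding genes were 54.2%, 55.8% and 54.4%. All 13 genes of Hist2, Hist3 and Hist4 had one in all 6 libraries. In dense clusters this window can take in the peak of a neighbouring gene. The start itself was covered in both libraries at 48 members at 21% O2, 48 at 1% O2 and 45 at <0.1% O2. The share of covered starts over all genes is not given here. No library had a peak near 7 members. Hist1h2ah, Hist1h2bk, Hist1h4i, Hist1h2ag and Hist1h2bj form the far end of the first Hist1 stretch, and Hist1h2ba and Hist1h2aa, known as the testis forms of H2B and H2A, close the second. Histone genes have near-identical copies, and the authors removed reads with a mapping quality of 30 or less, so the share of 76-base words within 500 bp of the start that occur once in the genome was counted. It was 56.3% to 100% around these 7 starts. It was below 10% at 8 other members (Hist1h2bq, Hist1h2ao, Hist1h4m, Hist1h4n, Hist1h2ap, Hist1h2br, Hist2h3c2 and Hist2h3c1), and no peak covered the start of any of those 8 in any library, against 48 covered starts among the other 59.

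One peak was absent at 1% O2 only. It lay at chr13:21831366-21831894, 302 bp from the start of Hist1h4n, an H4 gene, and within 2000 bp of Hist1h2ap and Hist1h2br. In replicate 2 at <0.1% O2 it no longer reached to within that distance of Hist1h2br, which accounts for the 59 genes there. Its summit pileup was 62 and 55 fragments at 21% O2 and 25 and 27 at <0.1% O2, with no peak in either library at 1% O2. The hypoxic values were thus below both normoxic ones, in libraries of higher coverage. A second peak, which covered the start of the H2A gene Hist1h2af, held 95 and 121 fragments at 21% O2, 113 and 91 at 1% O2 and 113 in replicate 1 at <0.1% O2, and was missing only from replicate 2 at <0.1% O2. These fragments overlapped between conditions. Over the coverage of each library they were 44.0 and 51.3 at 21% O2 and 38.6 and 30.4 at 1% O2. The remaining library at <0.1% O2 had 33.8. The median promoter peak over coverage was 40.3 and 49.6, then 49.9 and 43.8, then 35.2 and 31.4. It was thus lower at <0.1% O2 too. In units of that median the Hist1h2af peak measured 1.09 and 1.03, then 0.774 and 0.695, then 0.958. On both scales each hypoxic value was below both normoxic ones.

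Under normoxia the histone peaks were among the taller ones of the genome. Their median summit pileup rank was 83.7 and 84.6 in the 2 libraries at 21% O2, against 65.3 and 65.5 for all ranked promoter peaks. In units of the median promoter peak of the same library, the median histone peak measured 1.57 and 1.66. For each type the gene with the tallest nearest peak was Hist1h1c for H1, Hist3h2a for H2A, Hist2h2bb for H2B, Hist2h3b for H3 and Hist4h4 for H4. Hist2h3b and Hist2h2bb share 1 peak, and the mean ranks of these peaks at 21% O2 ran from 90.3 ± 1.89 (SD, n = 2) for Hist1h1c to 98.8 ± 0.16 (SD, n = 2) for Hist4h4. Local background was high as well, with a median rank of 94.99 and 95.66, and the fold, which divides by it, was low, with a median rank of 26.7 and 22.6 against 61.2 and 60.1 for promoter peaks.

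The summit pileup of most histone peaks was lower under hypoxia, at both oxygen levels. The median rank of the 41 peaks was 68.8 and 69.8 at 1% O2, and 68.5 and 68.7 at <0.1% O2. All 4 hypoxic libraries thus lay more than 10 points below both normoxic ones. At 1% O2, 34 of 41 peaks were called lower and 0 higher, against 16.5% and 11.8% of promoter peaks. At <0.1% O2, 32 were lower and 0 higher, against 32.0% and 10.2% of promoter peaks. All 41 had a mean rank below normoxia at each level. The median change was -15.1 points at 1% O2 and -15.4 at <0.1% O2, beside -0.40 and -3.86 over promoter peaks. Among the 8254 promoter peaks whose mean rank lay in the members' range of 40.2 to 92.7, 15.8% and 33.3% were lower. In 39 of 41 peaks all 4 hypoxic libraries stood below both normoxic ones, which held for 31.3% of promoter peaks, and the exceptions were Hist2h2aa1 and Hist3h2ba. The 2 levels share their normoxic libraries. In bulk cells, fewer cells with an open site and less opening per cell cannot be told apart.

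As a size, the summit pileup in units of the median promoter peak of its library fell to a median of 0.663 of its normoxic value at 1% O2 (range 0.356 to 0.958) and to 0.738 at <0.1% O2 (range 0.496 to 1.09). Over promoter peaks the median ratios were 1.02 and 1.05. On this scale 39 of 41 histone peaks were below 1 at <0.1% O2, and Hist2h2aa1 (1.06) and Hist3h2ba (1.09) were above. Ranks taken among all peaks that a library had, where hypoxic lists were longer, gave 15 and 17 lower calls in place of 34 and 32, against 3.64% and 16.0% of promoter peaks. A call size of 20 points gave 14 at each level, against 3.58% and 13.1%.

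**Figure D1:**
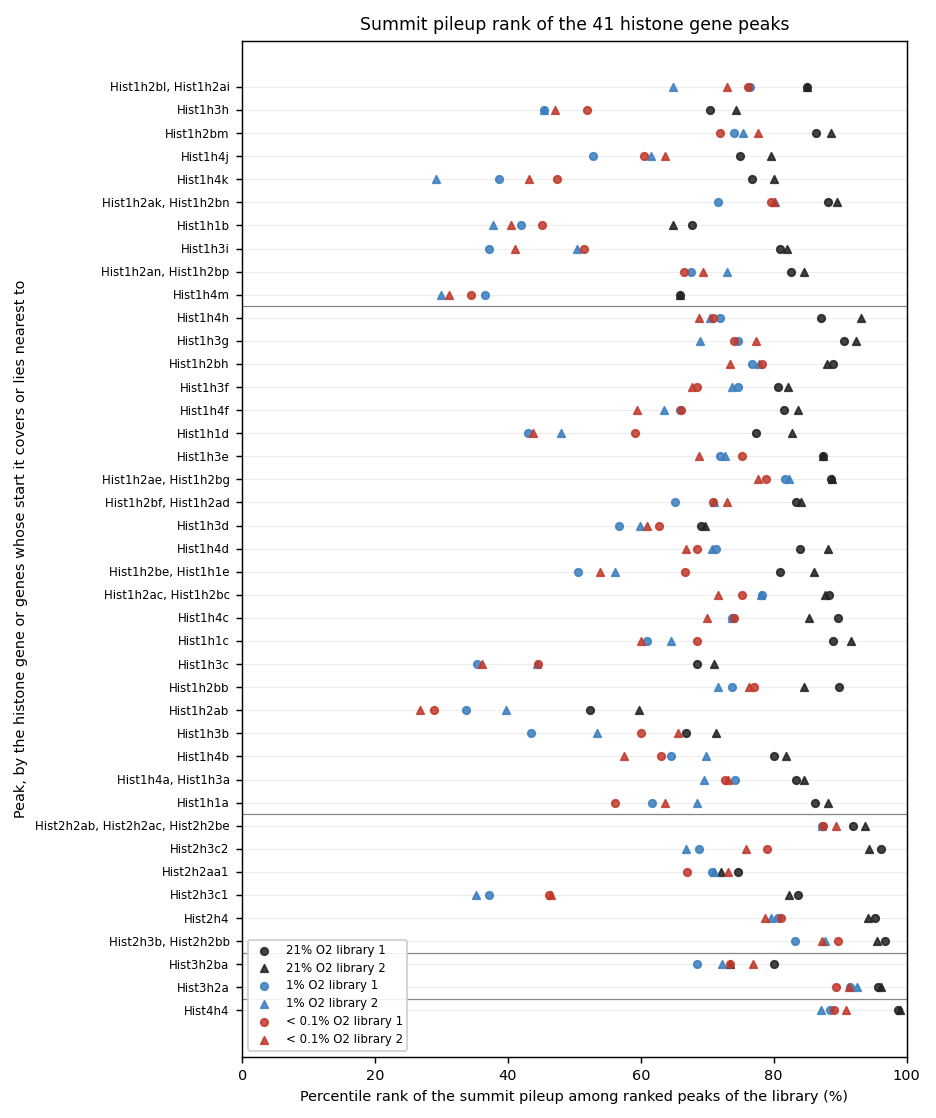
Percentile rank of the summit pileup of the 41 ranked histone gene peaks in each of the 6 libraries (x axis, %), with 1 row per peak in chromosome order, grey lines between the clusters, colours for oxygen levels and symbols for replicates. The 4 hypoxic libraries lie to the left of both normoxic ones in 39 rows.

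**Figure D2:**
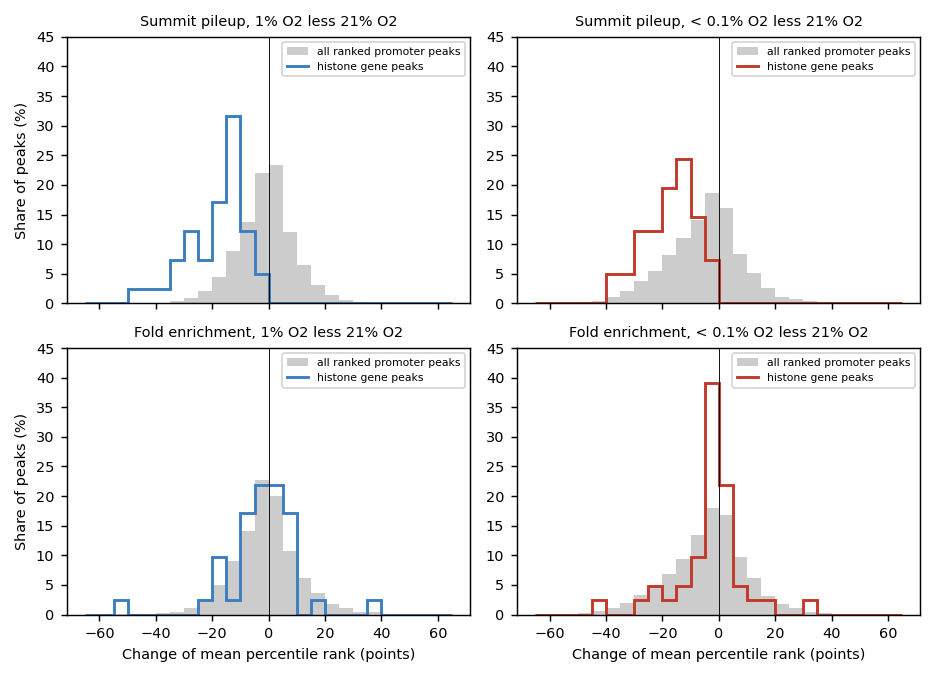
Change of the mean percentile rank from 21% O2 (x axis, points, bins of 5) as a share of peaks (y axis, %), for the summit pileup (top) and the fold (bottom), at 1% O2 (left) and <0.1% O2 (right). Outlined histone gene peaks sit wholly below 0 for the pileup, with medians of -15.1 and -15.4, and around 0 for the fold, while grey bars show all ranked promoter peaks.

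The 5 largest called falls at <0.1% O2 were at peaks of H3 and H4 genes. The peak at chr3:96247062-96247766, 377 bp from the start of the H3 gene Hist2h3c1, held 137 and 181 fragments at its summit at 21% O2, then 82 and 72 at 1% O2, then 92 and 77 at <0.1% O2. Its pileup rank was 83.7 and 82.3 at 21% O2, then 37.1 and 35.3 at 1% O2, then 46.3 and 46.5 at <0.1% O2. The ranks of the 3 conditions did not overlap, and 1% O2 was lowest, while the fragments at the 2 hypoxia levels overlapped each other below normoxia. This peak also had the largest fall in fold rank at each level, with changes of -52.6 points at 1% O2 and -42.8 at <0.1% O2. The start of Hist2h3c1 is one of those with few unique words.

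Hist1h3i encodes H3, and its window is printed above. Its peak at chr13:21782662-21783464 held 127 and 179 fragments at 21% O2, then 82 and 99 at 1% O2, then 102 and 69 at <0.1% O2. The pileup rank went from 80.9 and 82.0 to 37.1 and 50.4 at 1% O2 and 51.4 and 41.1 at <0.1% O2. Both hypoxic conditions were below both normoxic libraries and overlapped each other.

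Hist1h4k, an H4 gene with TATAAA shortly before its start and no CCAAT in its window, had its peak at chr13:21749956-21750631. The summit pileup was 114 and 169 at 21% O2, then 85 and 63 at 1% O2, then 94 and 72 at <0.1% O2, and the pileup rank was 76.7 and 80.0, then 38.7 and 29.2, then 47.3 and 43.1. The ranks of the 3 conditions were apart, with 1% O2 lowest, while the fragments at the 2 hypoxia levels overlapped each other below normoxia. Relative to the median promoter peak, the peak fell to 0.386 of normoxia at 1% O2 and 0.551 at <0.1% O2.

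The peak at chr13:21811928-21812584, nearest to the H4 gene Hist1h4m, held 88 and 118 fragments at 21% O2, then 81 and 64 at 1% O2, then 72 and 56 at <0.1% O2. Its rank was 65.8 and 65.9 under normoxia, 36.5 and 29.9 at 1% O2 and 34.4 and 31.1 at <0.1% O2. This was an exception in having a low background, 2.71 to 3.52 fragments, and fold ranks of 99.94 and 99.97 at 21% O2. Its fold rank was called lower at <0.1% O2 as well, with a change of -10.2 points. That is just past the call size, and the call was lost in 5 alternative settings and kept in 12. Of the words around the start of Hist1h4m, 8.75% occur once in the genome.

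Hist1h3c, an H3 gene with 5 CCAAT boxes in its window, had 94 and 133 fragments at 21% O2, then 79 and 87 at 1% O2, then 89 and 62 at <0.1% O2 at chr13:23744851-23745652. The pileup rank was 68.5 and 70.96, then 35.4 and 44.3, then 44.6 and 36.1. Hypoxic libraries overlapped each other and stayed over 20 points below the normoxic ones.

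All 6 H1 genes had a nearest peak called lower in pileup rank at both levels, with a median change of -24.2 points at 1% O2 and -23.3 at <0.1% O2, where 16.5% and 32.0% of promoter peaks were lower. Hist1h1c had the tallest H1 peak, with a rank of 88.9 and 91.6 at 21% O2, then 61.0 and 64.5 at 1% O2, then 68.5 and 59.99 at <0.1% O2. Hist1h1a, whose window is printed above, had 86.2 and 88.2, then 61.6 and 68.5, then 56.1 and 63.6. In both, every hypoxic library was below every normoxic one. Hist1h1t, known as the testis form of H1, has no peak of its own here, as its nearest peak covers the start of Hist1h4c 1715 bp away. Hist1h1d was assigned by its GENCODE start to the peak of Hist1h4f, 1416 bp off, while its RefSeq start lies 1770 bp further on, inside chr13:23554986-23556474. That peak had pileup ranks of 77.4 and 82.7 at 21% O2, then 43.0 and 48.0 at 1% O2, then 59.2 and 43.8 at <0.1% O2.

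By nearest peak, 11 of 11 H4 genes with a ranked peak were called lower at 1% O2 and 10 of 11 at <0.1% O2, with median changes of -15.1 and -18.4 points, where 16.5% and 32.0% of promoter peaks were lower. Of 12 H3 genes 11 and 9 were lower (medians -20.1 and -15.6), of 14 H2B genes 10 and 10 (medians -12.9 and -11.2) and of 13 H2A genes 7 and 8 (medians -13.0 and -10.5). No type had a gene called higher. The counts are over genes, and head-to-head genes share a peak, so they are not independent. The 7 peaks that covered starts of both H2A and H2B genes changed by -5.60 to -15.7 points at 1% O2 and -4.51 to -15.7 at <0.1% O2. Differences between types were not tested.

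Hist1h2ab is an H2A gene with the octamer on the opposite strand. Its peak had 65 and 102 fragments at 21% O2, then 76 and 79 at 1% O2, then 64 and 51 at <0.1% O2, with ranks of 52.4 and 59.7, then 33.6 and 39.7, then 28.9 and 26.7. The ranks of the 3 conditions were apart, and <0.1% O2 was lowest, in contrast to Hist1h4k. Hist1h2bb, an H2B gene with the octamer on its own strand, had ranks of 89.8 and 84.6 at 21% O2, then 73.7 and 71.6 at 1% O2, then 77.0 and 76.3 at <0.1% O2. It was called lower at each level. The change at <0.1% O2 was -10.5 points, just past the call size, and that call was lost in 6 alternative settings and kept in 11.

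Outside Hist1 the changes were of mixed size. In Hist2, 4 of 6 peaks were lower at 1% O2 and 3 at <0.1% O2, beside 16.5% and 32.0% of promoter peaks. The peak nearest to the H3 gene Hist2h3c2 and the H2A gene Hist2h2aa2 fell from ranks of 96.2 and 94.4 to 68.8 and 66.8 at 1% O2 and 79.0 and 75.8 at <0.1% O2. At Hist2h4, an H4 gene, the ranks were 95.3 and 94.2 at 21% O2, then 80.6 and 79.5 at 1% O2, then 81.1 and 78.7 at <0.1% O2. The ranks of the conditions did not overlap at Hist2h3c2, and at Hist2h4 the ranks at the hypoxic levels overlapped each other below normoxia.

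The peak shared by Hist2h3b and Hist2h2bb had ranks of 96.7 and 95.5, then 83.2 and 87.7, then 89.7 and 87.3, and was lower at 1% O2 only. The peak over Hist2h2ab, Hist2h2ac and Hist2h2be, which also lies near the start of Bola1, had 91.9 and 93.8, then 87.2 and 87.3, then 87.4 and 89.3, and its change was below the call size. Hist4h4, an H4 gene away from the clusters and with the highest mean rank of the member peaks at 21% O2, had 301 and 453 fragments at 21% O2, then 270 and 235 at 1% O2, then 260 and 236 at <0.1% O2, with ranks of 98.7 and 98.9, then 88.4 and 87.2, then 89.1 and 90.9. All hypoxic values were below both normoxic ones, and relative to the median promoter peak Hist4h4 measured 0.497 of normoxia at 1% O2 and 0.622 at <0.1% O2.

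The least change was at H2A and H2B genes outside Hist1. Hist2h2aa1 had 108 and 137 fragments at 21% O2, then 168 and 152 at 1% O2, then 141 and 136 at <0.1% O2, with pileup ranks of 74.7 and 72.1, then 70.8 and 71.02, then 67.02 and 73.2. The ranks at <0.1% O2 overlapped the normoxic ones. Its fold rank moved the other way, from 40.1 and 35.6 to 75.9 and 78.4 at 1% O2 and 61.2 and 75 at <0.1% O2, the largest rise among the members, and its background went from 12.3 and 14.9 to between 9.57 and 11.3 fragments under hypoxia. In Hist3, the H2B gene Hist3h2ba had pileup ranks of 80.1 and 73.5, then 68.5 and 72.2, then 73.5 and 76.9, and the H2A gene Hist3h2a had 95.7 and 96.2, then 91.4 and 92.5, then 89.4 and 91.3. Neither was called at either level, and the peak of Hist3h2a also lies near the start of Trim17.

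By fold rank the lower calls were near the promoter share at 1% O2. There 7 histone peaks were lower and 2 higher, against 16.5% and 11.9% of promoter peaks, and at <0.1% O2 7 were lower and 3 higher, against 26.5% and 12.0%. Among all peaks that a library had, the balance at 1% O2 turned, with 2 lower and 10 higher against 6.6% and 19.4% of promoter peaks, and at <0.1% O2 5 were lower and 4 higher against 17.4% and 16.8%. The median change was -1.32 and -1.15 points, beside -0.96 and -2.52 over promoter peaks, and single libraries moved it. At 1% O2 it was 0.03 without replicate 1 and -2.56 without replicate 2 of that condition, and -2.23 without replicate 1 at 21% O2. At <0.1% O2 it was -0.41 without replicate 1 and -1.99 without replicate 2 of that condition, and -2.05 and -2.62 without replicates 1 and 2 at 21% O2. At <0.1% O2 the 7 peaks lower by fold were all lower by pileup, 25 were lower by pileup only, 3 were higher by fold with no call by pileup, 6 had no call, and none had opposite calls. Those 3 were Hist2h2aa1, Hist1h3b and the pair Hist1h2ak and Hist1h2bn. The same split over promoter peaks is not given here. Local background moved with the pileup. Its median rank over the 41 peaks went from 94.99 and 95.66 to 82.8 and 81.8 at 1% O2 and 86.9 and 84.3 at <0.1% O2, with a median change of -10.4 and -9.06 points, and all 41 were below normoxia at both levels. For promoter peaks the median background change was -0.52 and -2.90. MACS2 takes this background from the same library around the peak, where neighbouring histone peaks are counted too, and the part of this in the fold values was not tested. Ranked by -log10 q in place of the fold, 28 and 31 peaks were lower, against 17.1% and 32.3% of promoter peaks, and 0 were higher, against 12.3% and 10.8%.

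After Hist2h3c1, the largest called falls in fold rank at <0.1% O2 were at Hist1h4c (-27.4 points), Hist2h4 (-23.1), Hist2h3c2 (-21.1) and Hist1h3e (-19.3). The fold at Hist1h4c was 11.2 and 11.1 at 21% O2, then 11.07 and 11.01 at 1% O2, then 9.31 and 8.52 at <0.1% O2. At Hist1h3e, an H3 gene, it was 14.5 and 16.3, then 16.2 and 16.6, then 13.0 and 13.0. Both <0.1% O2 libraries were the lowest at these 2 genes. The called rises in fold rank at <0.1% O2 were 30.2 points at Hist2h2aa1, 15.8 at Hist1h2ak and Hist1h2bn and 14.99 at the H3 gene Hist1h3b.

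**Figure D3:**
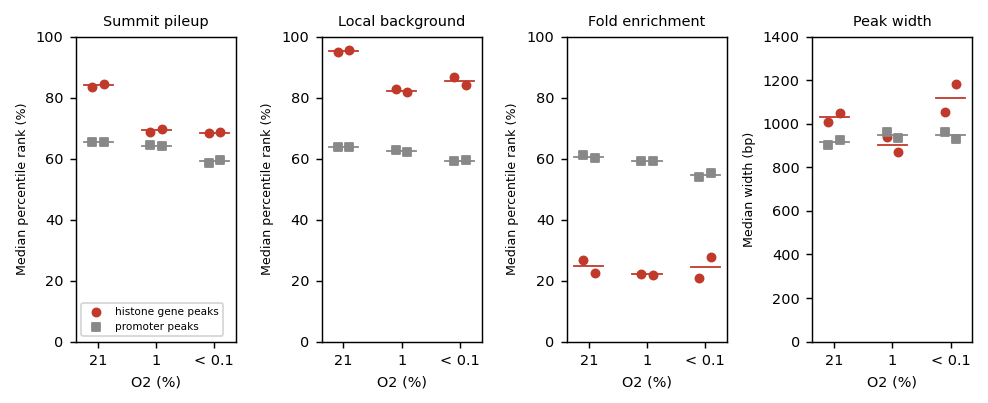
Median over the 41 histone gene peaks (circles) and the 12959 ranked promoter peaks (squares) in each library by oxygen level, as percentile ranks of the summit pileup, local background and fold and as the peak width in bp, with a line at the mean of 2 libraries. Pileup and background of the histone peaks lie below 21% O2 in all 4 hypoxic libraries, while the median fold rank runs from 22.6 to 26.7 at 21% O2, from 21.9 to 22.1 at 1% O2 and from 20.8 to 27.8 at <0.1% O2.

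From 1% to <0.1% O2, 0 of 41 peaks were lower and 3 higher in pileup rank, against 21.9% and 3.89% of promoter peaks, and 2 were lower and 2 higher in fold rank, against 20.5% and 9.14%. The 3 were Hist2h3c1, Hist1h4k and Hist1h3b. The number higher in pileup rank was 1 without replicate 2 at 1% O2 (4.63% of promoter peaks) and 6 without replicate 2 at <0.1% O2 (4.43%). It was 8 with ranks among promoter peaks only (9.48%) and 13 with pileup relative to the promoter median (16.0%). At Hist1h3b the pileup ranks were 66.8 and 71.3 at 21% O2, then 43.5 and 53.4 at 1% O2, then 60.02 and 65.7 at <0.1% O2, so severe hypoxia stood between the other two. The median change in pileup rank was 1.09 points, beside -3.39 over promoter peaks. By pileup rank 24 of 41 histone peaks were above and 17 below their level at 1% O2. The direction depended on the scale. In units of the median promoter peak, 38 of 41 were taller at <0.1% than at 1% O2, with a median ratio of 1.16 (promoter peaks 1.02). Over the coverage of each library the median histone peak went from 52.0 ± 3.68 to 40.98 ± 3.72 (SD, n = 2) and the median promoter peak from 46.8 ± 4.32 to 33.3 ± 2.70 (SD, n = 2).

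Peaks also changed in width. At 1% O2 both libraries were narrower than both normoxic ones at 23 of 41 histone peaks, against 14.2% of promoter peaks, and wider at 5, against 33.9%. The median change was -12.4% beside 3.47% over promoter peaks. At <0.1% O2, 13 were narrower (16.6% of promoter peaks) and 10 wider (34.4%). From 1% to <0.1% O2, 3 were narrower (20.6%) and 17 wider (22.5%). At Hist1h3e the peak spanned 946 and 915 bp at 21% O2, 693 and 684 bp at 1% O2 and 1778 and 1716 bp at <0.1% O2, the widest peaks being those of severe hypoxia. Within 2000 bp of its start each library at 21% and 1% O2 had 2 peaks, and each at <0.1% O2 had 1. The greater width thus went with fewer called peaks, and widening of a single peak was not tested. A peak's width is set where its caller ends it, and neighbouring peaks may be joined.

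Within the Hist1 and Hist2 stretches, 11 further ranked peaks lay over 2000 bp from any member start. Their pileup rank changed by a median of -2.30 points at 1% O2, with 2 of 11 lower against 16.5% of promoter peaks, and of -5.74 at <0.1% O2, with 1 of 11 lower against 32.0%. None was higher, against 11.8% and 10.2%. They were low peaks, with a median rank of 19.8 at 21% O2, and 1 of them reached the members' range, so the 2 sets cannot be compared at like height. That one, at chr13:23585219-23586139 in the body of Hist1h2be as GENCODE draws that H2B gene, changed by -4.96 and -6.33 points. The GENCODE start of Hist1h2be shares its peak with the H1 gene Hist1h1e, where the ranks were 80.9 and 86.0 at 21% O2, then 50.6 and 56.1 at 1% O2, then 66.7 and 53.8 at <0.1% O2.

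**Figure D4:**
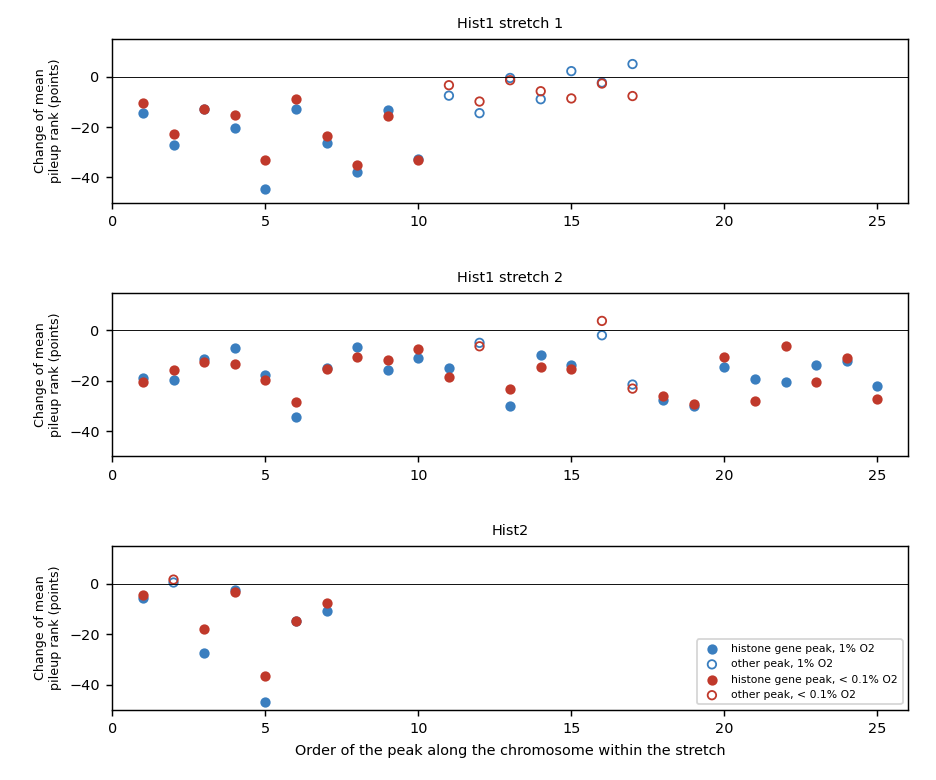
Change of the mean summit pileup rank from 21% O2 (y axis, points) for each ranked peak in its order along the 2 stretches of Hist1 and along Hist2 (x axis), with filled circles for histone gene peaks, open circles for other peaks, blue for 1% O2 and red for <0.1% O2. Every filled circle is below 0.

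Genes that transcribe, process, carry or replace these histones are given beside the 32.0% of promoter peaks that were lower and the 10.2% that were higher by pileup rank at <0.1% O2, and the 26.5% and 12.0% by fold rank. Of 21 symbols listed for histone transcription and 3′ end processing 2 (Cpsf3l and Symplk) matched no gene of the annotation and were not examined, and the other 19 had a ranked peak. In pileup rank at <0.1% O2 8 were lower and 1 higher, with a median change of -2.83 points, and by fold rank 4 were lower and 3 higher. Npat, the coactivator of histone transcription, had ranks of 96.2 and 98.2 at 21% O2, then 97.6 and 97.8 at 1% O2, then 95.3 and 95.1 at <0.1% O2. Casp8ap2 (FLASH), Slbp and Hinfp, which activates H4 genes, changed by 0.09, 1.03 and 9.08 points in pileup rank at <0.1% O2, below the call size, and Slbp was called higher in fold rank, by 10.4 points. Of the cyclin E and CDK2 genes, Ccne2 and Cdk2 were lower in pileup rank there (-14.6 and -13.1 points), with no call by fold. Ccne1 had no call by pileup (-1.68 points) and was called higher in fold rank (12.6 points). Cpsf2, Coil, Srrt and Ncbp1 were lower by pileup and fold, Cpsf2 most, from 76.4 and 74.1 to 57.9 and 53.4 at 1% O2 and 25.9 and 19.6 at <0.1% O2.

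Of 20 histone chaperone and deposition genes, all ranked, 6 were lower and 0 higher in pileup rank at <0.1% O2, with a median of -5.19 points, and by fold rank 4 were lower and 5 higher. Supt16 and Ssrp1, the subunits of FACT, and Atrx were lower by both measures, and Npm1, a histone chaperone of the nucleolus, had opposite calls, with -10.6 points in pileup rank and 13.1 in fold rank. At Supt16 the ranks were 77.0 and 74.1, then 37.6 and 35.9, then 22.8 and 22.3. Of 13 replication-independent histone variants 10 were ranked, and 4 were lower and 0 higher by pileup rank, with a median of -6.58, and 4 lower and 4 higher by fold rank. H2afx, H2afz, H3f3a and H3f3b, which encode H2A.X, H2A.Z and H3.3, changed by -7.58, -5.58, -0.55 and -0.52 points and had no call by pileup, and all 4 were called higher in fold rank. H2afv, the other H2A.Z gene, had no call by pileup either (-0.89 points) and was called lower in fold rank (-12.0 points). H1f0, H2afy and H1fx were lower by both measures, and H1f0, the linker histone of resting cells, went from 75 and 69.7 to 57.1 and 56.1 at 1% O2 and 29.5 and 44.5 at <0.1% O2. Of 10 hypoxia-inducible genes, listed to set beside the labels, 8 were ranked. By pileup rank 3 were higher and 0 lower at 1% O2 (11.8% and 16.5% of promoter peaks), and 2 higher and 1 lower at <0.1% O2 (10.2% and 32.0%). By fold rank 0 were higher and 3 lower at 1% O2 (11.9% and 16.5%), and 0 higher and 4 lower at <0.1% O2 (12.0% and 26.5%). Ldha, which encodes lactate dehydrogenase A, was lower by both measures at <0.1% O2, with -14.5 points in pileup rank and -27.9 in fold rank.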

How the data were processed

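ATACseq libraries were trimmed with Trimmomatic, aligned to mm10 with Bowtie2 2.2.5 and cleared of duplicates with Picard by the authors, who then called peaks in each library with MACS2 2.1.1.2 at a q of 0.001 and removed blacklisted regions. The deposited peak lists hold, per peak, the summit fold over local background made by the authors, with 2 further columns, −log10 of its p-value and −log10 of its q-value. They hold no read counts, so no count model was fitted. Peaks numbered 33006 to 43554 per library.

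From fold and p-value the summit pileup and background were solved with scipy 1.17.1, pandas 2.3.3 and numpy 2.4.6 under Python 3.11.15, and figures were drawn with matplotlib 3.10.9. Consensus peaks were overlaps over 200 bp between the replicates of a condition, merged across conditions. Genes over 500 kb apart split a cluster into stretches. Members and gene lists were chosen with earlier results of these data known. Named genes were all those outside Hist1, the 5 largest called falls and rises by pileup and by fold at <0.1% O2, the tallest peak of each type, members without a peak or with one in some libraries, Npat, Casp8ap2, Slbp, Hinfp, 5 histone variants and other listed genes called by both measures. Hist1h2ab, Hist1h2bb, the H1 genes other than Hist1h1c, Hist1h2be, H2afv, Ccne1, Ccne2, Cdk2 and the other peaks within the stretches were added after their values were seen. The scripts were tested on simulated data. Replicate numbers did not pair the samples, as deviations of same-numbered libraries correlated at -0.05 to 0.03 for fold ranks and -0.009 to 0.007 for pileup ranks.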

Additional observations from a re-analysis of the deposited data

Results flagged for a closer look

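The fold rank of the Hist1h4b peak, at an H4 gene of the second Hist1 stretch, went up at 1% O2 and down at <0.1% O2. It was 4.31 and 4.73 at 21% O2, then 8.67 and 12.4 at 1% O2, then 3.89 and 2.98 at <0.1% O2. Both libraries at 1% O2 stood above and both at <0.1% O2 stood below the normoxic ones. The changes were 6.02 and -1.09 points, both under the call size, and the difference between them was not tested. The pileup rank of the same peak was called lower at both levels.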

How the results depend on the processing

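All 41 member peaks kept a mean pileup rank below normoxia at both levels in the reported analysis, and the number called depended on the ranking and the call size. Ranks among all peaks of each library gave medians of -8.10 points at 1% O2 and -9.21 at <0.1% O2, 15 and 17 peaks lower in pileup rank, 0 higher from 1% to <0.1% O2 (2.25% of promoter peaks), and 2 lower and 10 higher in fold rank at 1% O2 (6.6% and 19.4%). With a GC trend subtracted the pileup medians were -15.7 and -17.5. A call size of 20 points gave 14 and 14 peaks lower in pileup rank and 0 higher from 1% to <0.1% O2 (0.702% of promoter peaks), and by fold rank 2 lower and 1 higher at 1% O2 (4.41% and 3.82%), 4 lower and 1 higher at <0.1% O2 (12.4% and 3.94%), and 0 lower and 0 higher between them (7.32% and 1.54%). A call size of 5 points gave by fold rank 12 lower and 9 higher at 1% O2 (24.7% and 17.6% of promoter peaks), 11 lower at <0.1% O2 (34.2%), and 9 lower and 7 higher from 1% to <0.1% O2 (28.5% and 16.2%), with 3 lower in pileup rank there (38.4%). Ranked by −log10 q, 28 peaks were lower and 0 higher at 1% O2 and 31 lower and 0 higher at <0.1% O2, and the peak of Hist1h2ak and Hist1h2bn reversed, to -3.98 points at <0.1% O2. Lists of equal length gave 4 lower by fold rank from 1% to <0.1% O2 (21.1%). Ranks among promoter peaks only, chosen after seeing the data, gave 5 higher by fold rank at <0.1% O2 (18.8%). From 1% to <0.1% O2 they gave 5 higher by fold rank (15.2%) and 8 higher by pileup rank (9.48%). Pileup relative to the promoter median with a call size of 0.3 log2, also chosen after seeing the data, gave 13 higher there (16.0%). The causes were not tested.

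Leaving out each library in turn gave pileup medians of -16.3 to -14.3 at 1% O2 and -15.9 to -14.3 at <0.1% O2. It gave 31 to 35 and 29 to 32 peaks lower, against 16.1% to 18.7% and 31.6% to 32.9% of promoter peaks. The fold medians were -2.56 to 0.03 and -2.62 to -0.41. By fold rank leaving out a library gave 2 to 5 higher at <0.1% O2 (5 without <0.1% O2 replicate 1, against 15.4% of promoter peaks). From 1% to <0.1% O2 it gave 2 to 6 higher by fold rank (5 without 1% O2 replicate 2, against 13.1% of promoter peaks, and 6 without <0.1% O2 replicate 1, against 13.7%). It gave 2 to 6 lower (4 without 1% O2 replicate 1, against 22.4%, and 6 without <0.1% O2 replicate 2, against 23.6%). By pileup rank there it gave 1 to 6 higher (1 without 1% O2 replicate 2, against 4.63% of promoter peaks, and 6 without <0.1% O2 replicate 2, against 4.43%). It gave 0 to 1 lower (1 without 1% O2 replicate 1, against 20.8%). The replicate block gave 34 and 32 peaks lower in pileup rank and changed no count of calls. Of 263 alternative values of counts and medians 220 stayed within their limits. The normoxic lists held 33006 and 36188 peaks, against 39348 to 43554 under hypoxia.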
